A study of Mus musculus with 24 samples.

Results

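Gene expression in the medial prefrontal cortex (mPFC) of mice exposed to morphine around birth was compared with that of saline controls over both deposited tables, one of female and one of male offspring, to find differences common to both. All 24 libraries of the series entered, 12 from morphine (MO) and 12 from saline (SAL) offspring, with 6 libraries for each combination of treatment and sex, and the table of origin was a term of the model. Of 24972 genes listed in both tables, 10503 had a mean of at least 100 normalized counts in each table and were tested. The animals were wild-type B6D2F1/J offspring, a cross in which the dams were C57BL/6J and the sires DBA/2J, taken at postnatal day 21 (P21). Dams received morphine sulfate subcutaneously each day, or saline, from 1 week before gestation until weaning, at a dose raised over the first days to 10 mg/kg and then held, and the offspring themselves were not injected. The offspring were therefore exposed through the dam alone, before birth and during nursing, and effects of morphine on maternal care cannot be told apart from those of the drug in the pup. A litter gave 1 offspring of each sex, small litters were combined, and which male and female libraries are littermates is not given, so the 24 libraries were treated as independent. If littermates are alike, standard errors, intervals and p-values over both tables may be too small. A like sign in both tables can then reflect shared litters.

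Morphine acts mainly on the μ-opioid receptor, a receptor coupled to inhibitory G proteins that lowers cAMP, closes calcium channels and opens potassium channels, and so dampens the firing and transmitter release of the neurons that carry it. In the prefrontal cortex the receptor is found mostly on a subset of GABAergic interneurons. The third postnatal week is a time of synapse formation, myelination and maturation of inhibition in this region. Neurons that have been active transcribe immediate early genes within minutes, and these transcripts are short lived, so their level follows the recent state of the animal as well as slower changes.

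No gene differed between MO and SAL over both tables after adjustment for the number of genes, and the genes with the smallest p had small differences. Limma on log2(normalized count + 1) called 0 of 10503 genes (0%) at a Benjamini-Hochberg adjusted p of 0.05, the smallest adjusted p being 0.774. At an unadjusted p under 0.05 there were 456 genes (4.34% of those tested), of which 278 (2.65%) were lower and 178 (1.69%) higher in MO. Of the 456, 454 had the same sign in both tables, against 62.7% of all genes. The fitted difference is the mean of the 2 table differences, so selection by its p largely brings about a like sign. The same criterion within a table held for 206 genes (1.96%) in females and 229 (2.18%) in males. Only 6 genes (0.0571%) met it in each table with the same sign, and 0 (0%) with opposite signs. The difference between the 2 tables was itself tested as an interaction, with 124 genes (1.18%) at an unadjusted p under 0.05 and 0 (0%) after adjustment, where the smallest adjusted p was 0.999. The median log2 difference of all genes was -0.0063, and 45.9% of genes lay above 0.

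Libraries held about 13.4 to 20.1 in units of 1e6 reads, as estimated from the spacing of low values, and a gene at 100 normalized counts had a counting error of 8.85% to 10.9%. Y-linked Ddx3y was at 850.4 to 1063 in males and at 0 to 1.11 in females, as labelled. Female MO library PFC1 stood apart, with summed myelin genes at 342755 normalized counts against 55768 to 199008 in the other female MO libraries, and with the largest part in the first principal component, which held 33.2% of the variance. The summed markers of striatal projection neurons, which lie beneath the cortex, were 26183 in PFC1, 21577 in male SAL library PFC16 and 17338 in male MO library PFC13, against 12949.9 to 14594 in the other libraries. The part of dissection in the results was not tested. Without PFC1, 106 genes were higher and 176 lower at an unadjusted p under 0.05, and again 0 passed adjustment. In all 24 libraries 62.7% of genes had the same sign in the 2 tables (28.2% higher in both, 34.6% lower in both), and without PFC1 56.4% did. Across genes, the Spearman correlation of the female with the male difference was 0.34, and 0.16 without PFC1. Genes are not independent replicates, so these are descriptions.

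**Figure D1:**
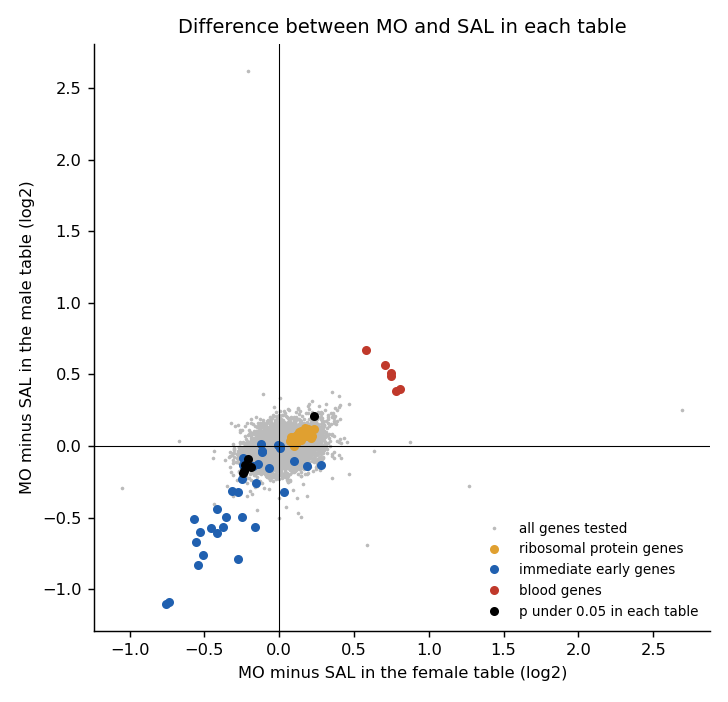
Log2 difference between MO and SAL in the female table (horizontal axis) and in the male table (vertical axis) for the 10503 genes tested, each point a gene. Immediate early genes spread to the lower left and blood genes to the upper right, ribosomal protein genes lie in a tight group just above 0 in both tables, and the 6 genes with an unadjusted p under 0.05 in each table lie within 0.25 of 0.

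Of the 6 genes that met the criterion in each table, 5 were lower and 1 was higher in MO. Slc35c1 (chromosome 2, 92452764 to 92460518 in GRCm38) encodes the transporter that carries GDP-fucose into the Golgi for fucosylation of glycoproteins. Its level was 259.9 to 306 (median 271) in SAL and 193 to 270.4 (median 235) in MO libraries of females, and 263 to 317 (median 302) in SAL and 242 to 299 (median 250.3) in MO libraries of males. Every one of the 12 MO libraries lay below the SAL median of its table, and 5 of the 6 female MO libraries lay below all female SAL libraries. The log2 difference was -0.22 (SE 0.0528, 95% interval -0.32 to -0.11, adjusted p in limma 0.774, exact permutation p = 0.000417), with -0.24 in females and -0.19 in males, and MO stood at 0.861 times the SAL level. Leaving out any 1 library kept it between -0.24 and -0.19. It had the smallest p of all genes tested.

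Cbln2 encodes a cerebellin, a secreted protein that bridges presynaptic neurexins and postsynaptic partners at synapses. Normalized counts were 869 to 1103 (median 981) in SAL and 737 to 907 (median 850.2) in MO libraries of females, and 869 to 1158 (median 1066) in SAL and 905 to 1001 (median 948) in MO libraries of males. All 12 MO libraries were below the SAL median of their table, although the ranges overlapped in each sex. The log2 difference was -0.18 (SE 0.0471, 95% interval -0.28 to -0.084, adjusted p in limma 0.774, exact permutation p = 0.00105), with -0.23 in females and -0.13 in males.

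Tubgcp6 (chromosome 15, 89099097 to 89123208), a component of the γ-tubulin ring complex that nucleates microtubules, was at 396 to 524 (median 423) in SAL and 332 to 409.9 (median 391) in MO libraries of females, and 430.2 to 482 (median 439) in SAL and 348 to 473 (median 395) in MO libraries of males. In 11 of 12 MO libraries it was below the SAL median, and its SAL groups each held 1 high library, PFC24 in females and PFC16 in males. Its log2 difference was -0.17 (SE 0.0507, 95% interval -0.27 to -0.064, adjusted p in limma 0.774, exact permutation p = 0.00197). Ankrd42 (chromosome 7, 92584183 to 92637142), which encodes an ankyrin repeat protein, ranged over 148 to 225 (median 181) in SAL and 129 to 174 (median 161) in MO libraries of females, and 188 to 219.8 (median 203) in SAL and 148 to 190.2 (median 188) in MO libraries of males. It was below the SAL median in 12 of 12 MO libraries, with male library PFC17 the lowest of its group, and the log2 difference was -0.21 (SE 0.0631, 95% interval -0.34 to -0.077, adjusted p in limma 0.774, exact permutation p = 0.00201).

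For Nckipsd (chromosome 9, 108808346 to 108818839), which encodes an adaptor protein of the actin cytoskeleton that binds NCK, levels were 816 to 893 (median 858) in SAL and 576 to 914 (median 718) in MO libraries of females, and 867 to 948 (median 902) in SAL and 815 to 901 (median 848) in MO libraries of males. The lowest library was PFC1 and 11 of 12 MO libraries were below the SAL median, but female library PFC23 was above every female SAL library. The log2 difference of -0.15 (SE 0.0512, 95% interval -0.25 to -0.043, adjusted p in limma 0.774, exact permutation p = 0.00508) shrank to -0.11 without PFC1. The gene that was higher, Rras2 (chromosome 7, 114046782 to 114117781), encodes a small GTPase of the RAS family. It was at 326 to 406 (median 387) in SAL and 379 to 563 (median 444) in MO libraries of females, and 306 to 423 (median 358) in SAL and 352 to 479 (median 426) in MO libraries of males. In 10 of 12 MO libraries it lay above the SAL median, and the groups overlapped in each sex. Its log2 difference was 0.22 (SE 0.0658, 95% interval 0.087 to 0.36, adjusted p in limma 0.774, exact permutation p = 0.00375), with 0.23 in females and 0.21 in males. Male SAL library PFC16, one of the libraries high in striatal markers, was the lowest male SAL library for Rras2 and Slc35c1 and the highest for Cbln2, Tubgcp6 and Ankrd42.

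**Figure D2:**
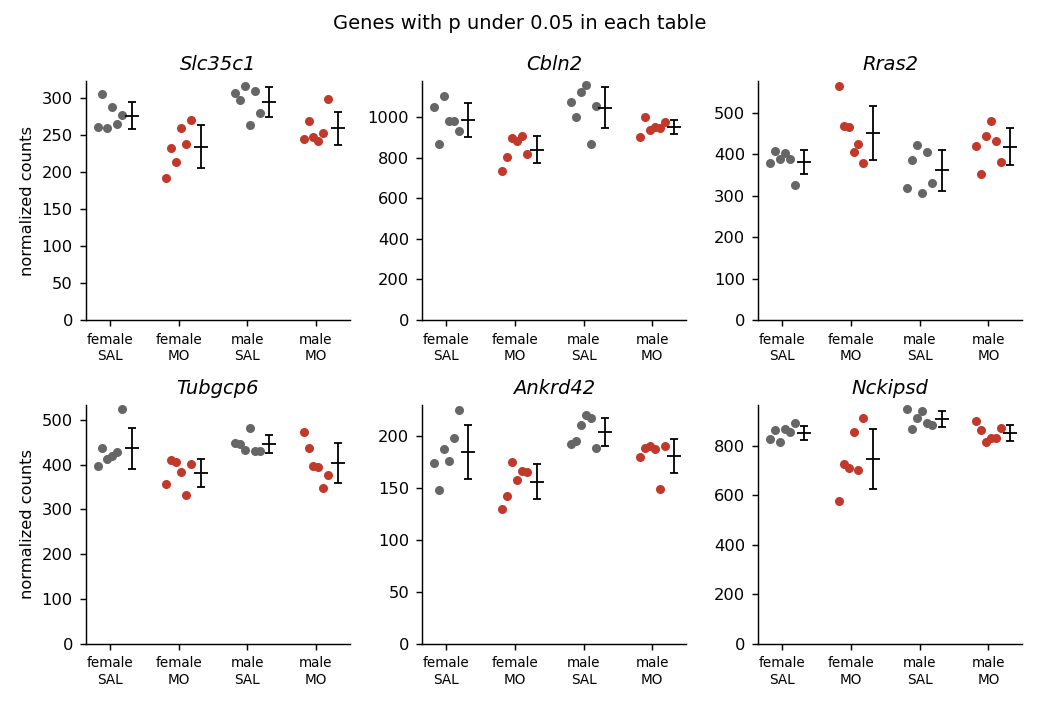
Normalized counts (vertical axes, from 0) in the female and male SAL (grey) and MO (red) groups for the 6 genes with an unadjusted p under 0.05 in each table. Points are libraries, 6 in each group, and bars give the mean ± SD. Slc35c1, Cbln2 and Ankrd42 were below the SAL median in 12 of 12 MO libraries, while the ranges of MO and SAL overlapped for each of the 6 genes in at least 1 sex.

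The count of such genes was not stable, and lay between 2 and 15 when 1 library was left out. It was 2 without female SAL library PFC24 or male MO library PFC13 or PFC17, 3 without male library PFC9, PFC15 or PFC16, and 12, 14 and 15 without female libraries PFC8, PFC6 and PFC23.

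Other genes with a small p over both tables were of mixed function. Among the next that were lower, C2cd3, a centriole protein needed for cilia, had a log2 difference of -0.19 (SE 0.0564) and was below the SAL median in 12 of 12 MO libraries. Coro7, a coronin of the Golgi, was at -0.14 (SE 0.0428) and was also below it in 12 of 12. Mthfd1l, the mitochondrial enzyme that makes formate in one-carbon metabolism, was at -0.20 (SE 0.0602), and the zinc finger gene Zfp719 at -0.17 (SE 0.0568). Each of these 4 had an adjusted p of 0.774 in limma. Among those that were higher, Emc8, a subunit of the complex that inserts membrane proteins into the endoplasmic reticulum, was at 649 to 722 (median 687) in SAL and 697 to 896 (median 759.7) in MO libraries of females, and 679 to 743 (median 709) in SAL and 712 to 782 (median 743) in MO libraries of males. It lay above the SAL median in 12 of 12 MO libraries, with a log2 difference of 0.13 (SE 0.0378, 95% interval 0.048 to 0.20, adjusted p in limma 0.774, exact permutation p = 0.000466). Smpd2, a neutral sphingomyelinase, was above it in 12 of 12, at 0.26 (SE 0.0778), and so was Ttc5, a cofactor of p53, at 0.091 (SE 0.0310). The MYC family gene Mycl was at 0.21 (SE 0.0627), the peroxisome assembly gene Pex16 at 0.19 (SE 0.0587) and the tubulin cofactor gene Tbcel at 0.14 (SE 0.0456). Hddc2 stood at 0.24 (SE 0.0771), Mpzl1 at 0.23 (SE 0.0795) and Urm1, a ubiquitin-like modifier of transfer RNA, at 0.16 (SE 0.0564). PFC1 was the highest female MO library for Rras2, Emc8, Smpd2, Pex16, Tbcel, Mpzl1, Ttc5 and Urm1, and without it the difference of Urm1 was 0.12, that of Mpzl1 0.18 and that of Smpd2 0.21.

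The precision of the comparison bounds how large a common difference could be, if the libraries are independent. The median standard error was 0.0568 on the log2 scale, with 0.0351 and 0.110 at the 5th and 95th percentiles. For 9775 genes (93.1%) the 95% interval lay wholly within a change of 25% upward or the matching fold downward, and for 10417 (99.2%) within 1.5-fold. Intervals widened to cover all 10503 genes at once lay within the same 25% for 32.8% of genes, within 1.5-fold for 86.1% and 2-fold for 98.3%. The estimate itself passed 25% in 35 genes, 1.5-fold in 13 and 2-fold in 2. The Gapdh transcript, often used as a reference, differed by -0.066 (95% interval -0.17 to 0.039), but by -0.25 in the 11 libraries whose column names end in combined and by 0.089 in the other 13.

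**Figure D3:**
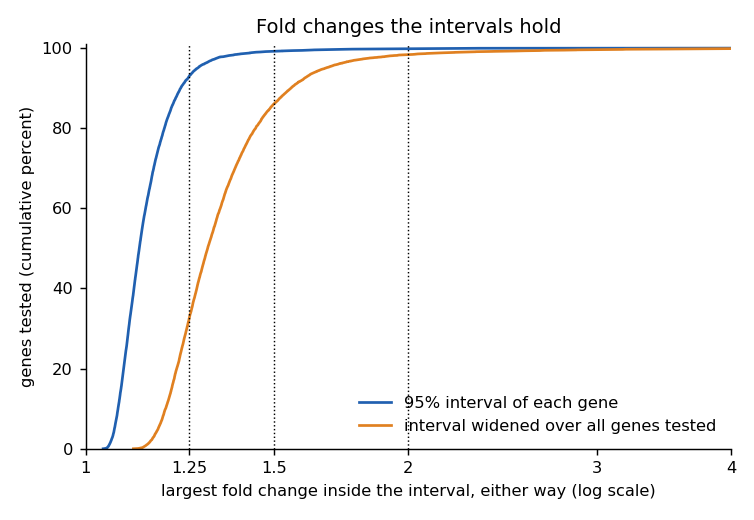
Cumulative percent of the 10503 genes (vertical axis) whose interval for the difference between MO and SAL holds no fold change larger than the value on the horizontal axis, in either direction (log scale). The blue line is the 95% interval of each gene and the orange line the interval widened over all genes, and dotted lines mark a rise of 25%, 1.5-fold and 2-fold, within which 93.1%, 99.2% and 99.8% of the 95% intervals lie.

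Among 42 gene lists, the immediate early genes had the most members lower in MO at an unadjusted p under 0.05. These genes encode transcription factors, feedback phosphatases and synaptic proteins that are transcribed at once when CREB, SRF and other factors already bound at their promoters are phosphorylated. Of 34 tested members 16 were lower and 0 higher, against 2.65% and 1.69% of all genes. The members were lower in both tables in 26 of 34 cases and higher in both in 1, against 34.6% and 28.2% of all genes. Their median log2 difference was -0.27, with -0.24 in females and -0.32 in males. Without female library PFC1 the female median was -0.11, and 23 of 34 members were lower in both tables. No member passed adjustment (smallest adjusted p 0.774). Within the tables taken alone 18 members had an unadjusted p under 0.05 in males and 0 in females, and the smallest interaction p of a member was 0.0530 before adjustment, so a difference between the tables was not shown.

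The bases just upstream of 4 of these genes are shown because they hold the core of the cAMP response element, the element through which CREB acts. Sequences are the 250 bases before the RefSeq start in GRCm38.p6, read 5′ to 3′ on the strand of the gene, with TGACG and its complement CGTCA in capitals wherever they occur, so that a run TGACGTCA is one of each overlapping.
Fos, chr12:85473640-85473889, plus strand: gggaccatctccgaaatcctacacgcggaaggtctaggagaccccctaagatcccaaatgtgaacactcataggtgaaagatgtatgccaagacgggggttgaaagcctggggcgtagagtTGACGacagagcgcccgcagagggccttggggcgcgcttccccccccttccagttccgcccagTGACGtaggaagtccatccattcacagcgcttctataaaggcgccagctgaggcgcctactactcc
Npas4, chr19:4989972-4990221, minus strand: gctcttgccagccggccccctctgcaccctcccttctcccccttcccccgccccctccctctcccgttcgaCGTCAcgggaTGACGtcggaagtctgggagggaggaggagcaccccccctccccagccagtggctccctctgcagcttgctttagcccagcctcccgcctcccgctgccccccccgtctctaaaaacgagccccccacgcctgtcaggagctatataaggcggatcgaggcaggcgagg
Dusp1, chr17:26508473-26508722, minus strand: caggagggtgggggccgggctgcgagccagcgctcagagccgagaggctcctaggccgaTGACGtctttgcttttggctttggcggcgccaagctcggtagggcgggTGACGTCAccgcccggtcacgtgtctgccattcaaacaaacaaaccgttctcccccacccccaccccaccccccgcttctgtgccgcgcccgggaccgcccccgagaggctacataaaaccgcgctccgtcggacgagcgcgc
Btg2, chr1:134079156-134079405, minus strand: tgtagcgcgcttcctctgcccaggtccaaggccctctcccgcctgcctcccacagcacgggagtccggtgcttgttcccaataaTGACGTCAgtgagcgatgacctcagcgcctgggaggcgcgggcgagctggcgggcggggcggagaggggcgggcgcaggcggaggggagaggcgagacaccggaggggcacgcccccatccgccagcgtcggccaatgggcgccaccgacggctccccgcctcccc
Such a core on either strand was in 17.8% of all 32851 windows of this kind and the palindrome TGACGTCA in 1.55%. Of the 35 listed genes 26 were in the table, with 39 windows over their alternative starts, and 21 of the 39 held a core. For the 16 lower genes 10 were in the table, and 11 of their 14 windows held one. The serum response element core, a CArG box, was in 4 of these 14 windows, all of Egr2, and in 1.47% of all windows. Windows of 1 gene overlap, and a match of letters does not show binding. Elements beyond 250 bases were not searched, and Egr1, Arc, Ier2, Trib1, Sik1 and Cyr61 had no window. The shares of all windows were not matched for base content.

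Egr1, a zinc finger transcription factor with a high level in resting cortex, had the smallest p of the list. It was at 4418 to 8340.3 (median 7370.1) in SAL and 1932 to 7006 (median 6205) in MO libraries of females, and 6563 to 8727 (median 7831) in SAL and 3330.2 to 7165 (median 5516) in MO libraries of males. The 12 MO libraries were all below the SAL median of their table, but the ranges overlapped in both sexes. In females the overlap rested on SAL library PFC6 at 4418, and in males on SAL library PFC18 at 6563. The log2 difference was -0.54 (SE 0.171, 95% interval -0.89 to -0.19, adjusted p in limma 0.774, exact permutation p = 0.00516), with -0.57 in females and -0.51 in males. Fos, a partner in the AP-1 dimer, was at 391 to 915 (median 819) in SAL and 172 to 950.4 (median 666) in MO libraries of females, and 729 to 979 (median 868) in SAL and 277 to 935 (median 576) in MO libraries of males. It was below the SAL median in 10 of 12 MO libraries, and the highest MO libraries reached the SAL range in both sexes. The log2 difference of Fos was -0.61 (SE 0.222, 95% interval -1.07 to -0.16, adjusted p in limma 0.774, exact permutation p = 0.0179).

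Arc, a cytoskeletal protein of dendrites that removes AMPA receptors from synapses, had the largest difference of the list. Its values were 1757 to 8261 (median 5619) in SAL and 681 to 6708 (median 3255) in MO libraries of females, and 4313 to 5809.9 (median 5738) in SAL and 939.7 to 5881 (median 2919) in MO libraries of males. In 9 of 12 MO libraries it was below the SAL median, and MO values spread over a wider range than SAL values in males. The log2 difference was -0.93 (SE 0.330, 95% interval -1.61 to -0.25, adjusted p in limma 0.774, exact permutation p = 0.0176). Npas4, an activity-dependent factor of inhibitory synapses, was at -0.64 (SE 0.231), Nr4a1, an orphan nuclear receptor, at -0.69 (SE 0.259), and Egr2 at -0.91 (SE 0.376). The MAP kinase phosphatase genes were at -0.51 (SE 0.191) for Dusp1 and -0.32 (SE 0.141) for Dusp6. Trib1 was at -0.57, Ier2 at -0.51, Sik1, a kinase that restrains CREB coactivators, at -0.43, Egr4 at -0.43, Junb at -0.47, Cyr61 at -0.53, Btg2 at -0.36 and Nfil3 at -0.30. By the exact permutation test Junb (p = 0.0530), Dusp6 (p = 0.0556) and Btg2 (p = 0.0649) missed 0.05.

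The low values came from the same libraries for most of these 16 genes. In females PFC5 (MO) was among the 3 lowest libraries of its table for 16 of 16 genes, PFC1 (MO) for 14 and PFC6 (SAL) for 13. In males PFC17 (MO) was among the 3 lowest for 16, PFC13 (MO) for 15, PFC10 (MO) for 11 and PFC11 (MO) for 6. By contrast, MO libraries PFC8 and PFC23 in females and PFC15 and PFC19 in males were among the 3 lowest for none of the 16 genes. The number of members lower at an unadjusted p under 0.05 was 11 without PFC5, 13 without PFC1 and 18 without PFC6. The time between handling and tissue collection is not in the labels used here, and its part in the result was not tested.

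**Figure D4:**
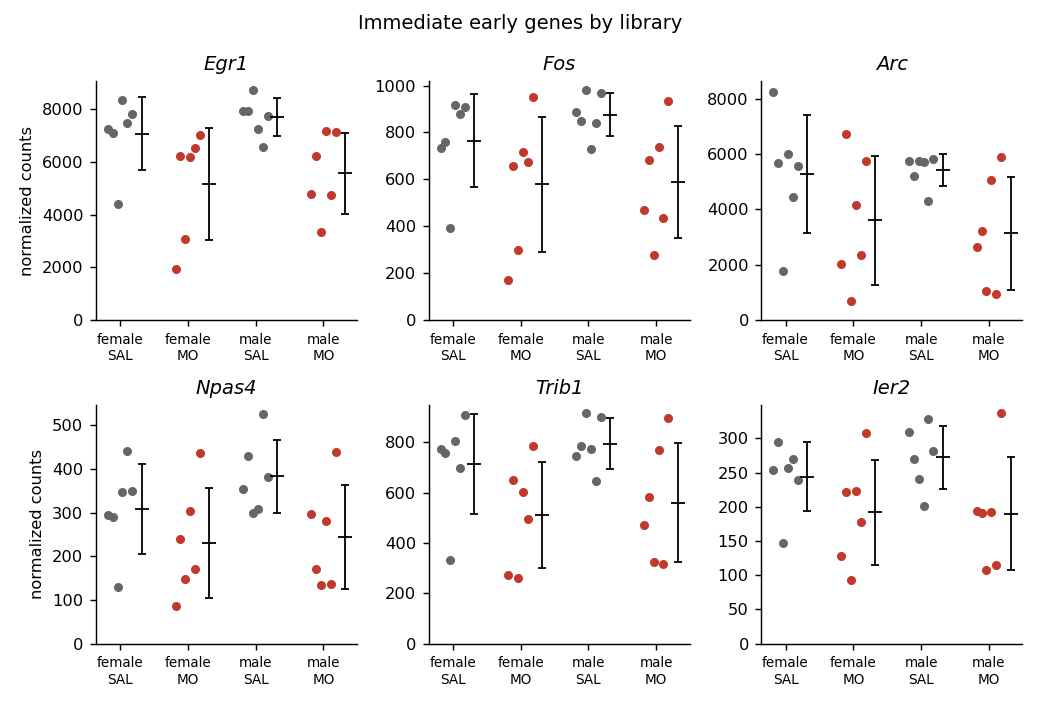
Normalized counts (vertical axes, from 0) of 6 immediate early genes in the female and male SAL (grey) and MO (red) groups. Points are libraries, 6 in each group, and bars give the mean ± SD. The lowest MO libraries lie below the SAL range of their table while other MO libraries lie within it, and 1 female SAL library is low for all 6 genes.

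Blood genes had the largest share of members higher in MO. All 6 tested members had an unadjusted p under 0.05 and were higher in both tables, against 1.69% and 28.2% of all genes, with a median log2 difference of 0.62. They were 5 globin genes and Alas2, the enzyme of heme synthesis of red blood cells. Hbb-b1, the adult β-globin, was at 2292 to 8436 (median 6089.7) in SAL and 3651 to 19116 (median 8729) in MO libraries of females, and 3503 to 9167 (median 4696) in SAL and 4452 to 10934 (median 8386) in MO libraries of males. MO libraries overlapped SAL libraries in both sexes and lay above the SAL median in 10 of 12. Its log2 difference was 0.64 (SE 0.240, 95% interval 0.15 to 1.13, adjusted p in limma 0.774, exact permutation p = 0.0251), and those of Hba-a1, Hba-a2, Hbb-bt, Hbb-b2 and Alas2 were 0.63, 0.60, 0.63, 0.62 and 0.58. Globin genes are near-identical copies among which reads can be split, so their values are uncertain singly and are not separate evidence. Of the 15 listed genes, 7 had a mean under 10 normalized counts, among them the erythrocyte gene Slc4a1 and the neutrophil genes S100a8, S100a9, Ngp, Ltf and Camp. The summed list ranged over 8584 to 39843 in female MO, 5304 to 19666 in female SAL, 7996 to 22028 in male SAL and 10312 to 24880.3 in male MO libraries. The count of 6 dropped to 2 without female SAL library PFC24, the lowest female library for each of the 6, and to 3 without PFC1 or PFC5. The study took the brains without perfusion. In bulk tissue, more red blood cells left in the vessels and more globin RNA per cell cannot be told apart.

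Genes of cytosolic ribosomal proteins were shifted by a small amount in one direction over all 24 libraries. All 50 tested members lay above 0 in both tables, against 28.2% of all genes, with a median log2 difference of 0.11. Of the 50, 2 had an unadjusted p under 0.05 (4.34% of all genes). Rpl41, the smallest ribosomal protein, was at 5303 to 6620.3 (median 5775) in SAL and 5055 to 10068 (median 6694) in MO libraries of females, and 4884 to 6220.4 (median 5430.4) in SAL and 5293 to 6836 (median 5870.1) in MO libraries of males. Its log2 difference was 0.18 (SE 0.0740, 95% interval 0.026 to 0.33, adjusted p in limma 0.774, exact permutation p = 0.0255), and MO libraries lay above the SAL median in 9 of 12 with overlapping ranges. Rpl22 was at 0.16 (SE 0.0681). Without PFC1 all 50 remained above 0 in the pooled difference and 49 did so in both tables, with a median of 0.063 and 1 at an unadjusted p under 0.05. In the 11 libraries whose column names end in combined, 35 of the 50 lay above 0, and 1 of 50 did so in both tables. Their medians there were 0.076 in females and -0.13 in males, where SAL was 1 library. Ribosomal protein genes vary together within a library and have many processed copies, so 50 members are not 50 observations. Of 50 nuclear genes of oxidative phosphorylation 38 lay above 0 and none had an unadjusted p under 0.05, with a median of 0.049.

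Markers of neurons and glia gave few members under the unadjusted criterion. None of 12 pan-neuronal, 11 excitatory, 18 cortical layer or 19 interneuron genes met it, against 4.34% of all genes, with medians of -0.074, -0.073, -0.048 and -0.036. The vesicular glutamate transporter gene Slc17a7 was at 30034 to 36047 (median 34021) in SAL and 24987 to 33682 (median 31841) in MO libraries of females, and 31559 to 36237 (median 34760.4) in SAL and 30153 to 38176 (median 33671) in MO libraries of males. PFC1 was its lowest library, the groups overlapped, and the log2 difference was -0.074 (SE 0.0477, 95% interval -0.17 to 0.024, adjusted p in limma 0.774, exact permutation p = 0.119). Gad1, the GABA-synthesizing enzyme, differed by -0.084 (95% interval -0.22 to 0.051). All 19 myelin genes lay above 0 in both tables (28.2% of all genes did), none with an unadjusted p under 0.05, at a median of 0.25, which was 0.11 without PFC1. Without that library 8 of the 19 were above 0 in both tables, and the female median turned to -0.013 against 0.21 in males. In the 13 libraries whose column names lack combined, PFC1 not among them, all 19 were above 0 in both tables, at a median of 0.37. Of the 19, 8 were higher there at an unadjusted p under 0.05, against 11.3% of all genes. In the other 11 libraries 0 of 19 were above 0 in both tables. Their medians were 0.27 in females and -0.24 in males, where SAL was 1 library. Mbp, the myelin basic protein, varied widely, at 12125 to 51049 (median 30257) in SAL and 18355 to 130088 (median 23972) in MO libraries of females, and 17091 to 30243 (median 21016) in SAL and 14295 to 52663 (median 25497) in MO libraries of males, and its log2 difference had a 95% interval of -0.25 to 0.92. The astrocyte list had 18 of 18 members above 0 at a median of 0.10, with 0.20 in females and 0.0038 in males, and fell to 14 of 18 and a median of 0.045 without PFC1. For the water channel Aqp4 the difference was 0.033 (95% interval -0.20 to 0.26), for the microglial fractalkine receptor Cx3cr1 0.16 (-0.10 to 0.42) and for the endothelial tight junction gene Cldn5 0.067 (-0.078 to 0.21). Pecam1, an adhesion molecule of endothelium, was the only marker of 20 in the endothelial list with an unadjusted p under 0.05, near the 4.34% of all genes. It was at 0.21 (SE 0.0944, exact permutation p = 0.0512).

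The opioid system was little measured at this depth. Oprm1, the μ-opioid receptor gene, did not reach the minimum and was not tested, with means of 7.82 ± 2.48 in female SAL, 9.84 ± 4.32 in female MO, 11.4 ± 4.48 in male SAL and 8.74 ± 1.65 in male MO libraries (SD, n = 6 each). Oprk1, the κ-opioid receptor gene, also missed the minimum. Its means were 88.4 ± 24.6 in female SAL, 110.8 ± 59.8 in female MO, 106.8 ± 25.0 in male SAL and 94.1 ± 11.1 in male MO libraries. Of 5 tested members none had an unadjusted p under 0.05, 1 lay above 0, and the list median was -0.033. Among these, differences were -0.037 (95% interval -0.15 to 0.079) for the nociceptin receptor gene Oprl1, -0.087 (-0.32 to 0.15) for the δ-opioid receptor gene Oprd1, and -0.024 (-0.19 to 0.14) for Pdyn and 0.026 (-0.33 to 0.38) for Penk, precursors of dynorphin and enkephalin. Penk was highest in PFC1, PFC16 and PFC13, the libraries high in summed striatal markers, but it is itself 1 of the markers in that sum. Among 40 genes of G protein and cAMP signaling, 3 were lower and none higher at an unadjusted p under 0.05, against 2.65% and 1.69% of all genes. They were Gnb5, a G protein β subunit paired with RGS proteins, at -0.12 (SE 0.0424), Prkar1b, a regulatory subunit of protein kinase A, at -0.12 (SE 0.0517), and Rgs4, which speeds the shut-off of inhibitory G proteins, at -0.14 (SE 0.0658). Without PFC1, 2 of the 40 were lower.

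Receptors and channels of neurons lay slightly below 0 as groups in all 24 libraries, and nearer to 0 without PFC1. Over all genes 34.6% were lower in both tables, and 2.65% were lower and 1.69% higher at an unadjusted p under 0.05. Of 30 presynaptic genes 21 were lower in both tables (19 without PFC1) and 1, Syn1, a synapsin that tethers vesicles, had an unadjusted p under 0.05 (-0.15, SE 0.0619). Of 29 postsynaptic genes 19 were lower in both (16 without PFC1), with Kalrn, a guanine exchange factor of spines, at -0.12 (SE 0.0554). Of 26 sodium and calcium channel genes 21 were lower in both (11 without PFC1), with Cacnb1 at -0.12 (SE 0.0536), and of 34 potassium channel genes 18 (14 without PFC1), with Kcnv1 at -0.13 (SE 0.0563). The GABA receptor list had 15 of 18 lower in both (12 without PFC1). The glutamate receptor list had 14 of 24 lower in both (7 without PFC1) and 1 member higher at an unadjusted p under 0.05, the kainate receptor gene Grik1, at 0.16 (SE 0.0701). Medians of these 6 lists lay between -0.075 and -0.040, and between -0.033 and -0.0027 without PFC1, which was the lowest female MO library for each of the 5 genes named, Grik1 included. The 13 libraries whose column names lack combined, PFC1 not among them, gave medians from -0.11 to -0.069. There 12.1% of all genes were lower at an unadjusted p under 0.05. That held for 14 of 26 sodium and calcium, 13 of 34 potassium, 10 of 29 postsynaptic and 7 of 18 GABA genes. It also held for 7 of 30 presynaptic and 6 of 24 glutamate genes, and 1 glutamate gene was higher.

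Among 25 monoamine and neuromodulator genes, 5 were lower and 2 higher at an unadjusted p under 0.05 (2.65% and 1.69% of all genes). The lower ones were the adrenergic receptor genes Adra1a (-0.21) and Adrb1 (-0.18), the muscarinic receptor genes Chrm1 (-0.12) and Chrm4 (-0.21), and Faah (-0.10, SE 0.0370), the enzyme that degrades the endocannabinoid anandamide. The higher ones were Maoa (0.091), which degrades monoamines, and Mgll (0.11), which degrades 2-arachidonoylglycerol. Without PFC1, 1 of the 25 was lower and none higher. Of 21 circadian genes 3 were lower (2.65% of all genes), Nfil3 at -0.30, the clock activator Arntl at -0.16 (SE 0.0570) and Per2 at -0.25 (SE 0.113), and 2 were without PFC1. Of 25 chaperone genes 2 were lower (2.65% of all genes), Hspa1a, the inducible HSP70, at -0.42 (SE 0.168), and Hsph1 at -0.16 (SE 0.0716). Hspa1a has a near-identical neighbour, Hspa1b, and its value is uncertain for that reason.

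**Figure D5:**
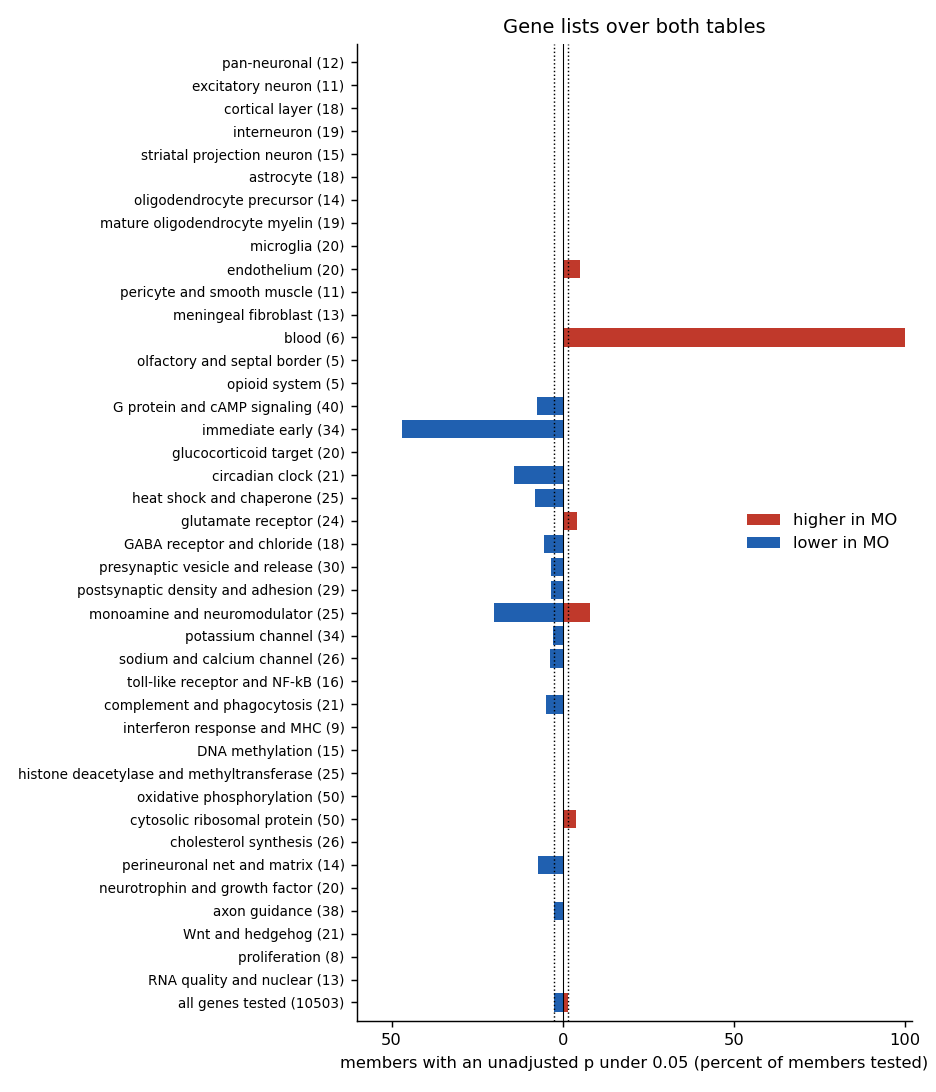
Percent of tested members (horizontal axis) with an unadjusted p under 0.05 that were higher (red, to the right) or lower (blue, to the left) in MO, for each list with at least 5 tested members, whose number stands in brackets. Dotted lines mark the shares of all genes, 2.65% lower and 1.69% higher, and immediate early genes (16 of 34 lower) and blood genes (6 of 6 higher) stand farthest from them.

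Lists of innate immunity and of chromatin gave almost no members. Of 16 genes of toll-like receptor and NF-κB signaling, 20 of microglia, 9 of the interferon response and antigen presentation, 15 of DNA methylation and 25 of histone deacetylases and methyltransferases, 0 had an unadjusted p under 0.05 (4.34% of all genes did). In the complement and phagocytosis list 1 of 21 did, Cx3cl1, the neuronal ligand of Cx3cr1, at -0.13 (SE 0.0593). Medians of these 6 lists lay between -0.031 and 0.058. Dnmt3a, a de novo DNA methyltransferase, was at 1643 to 2136 (median 1849) in SAL and 1579.6 to 2417 (median 2061) in MO libraries of females, and 1740.0 to 2230.1 (median 1948) in SAL and 1674 to 2306 (median 2135) in MO libraries of males. Its groups overlapped in both sexes, and the log2 difference was 0.056 (SE 0.0683, 95% interval -0.085 to 0.20, adjusted p in limma 0.823, exact permutation p = 0.445). Of 14 perineuronal net and matrix genes 1 was lower (2.65% of all genes), Hapln4, a link protein of perineuronal nets, at -0.21 (SE 0.0715), which was -0.34 in females and -0.080 in males. In the axon guidance list 1 of 38 was lower, near the 2.65% of all genes, Sema3a, a repellent semaphorin, at -0.19 (SE 0.0695). Lists of glucocorticoid targets (20 genes), cholesterol synthesis (26), growth factors (20), Wnt and hedgehog signaling (21), oligodendrocyte precursors (14), pericytes and smooth muscle (11), meningeal fibroblasts (13), striatal projection neurons (15), proliferation (8), RNA quality (13), olfactory and septal borders (5) and choroid plexus (1) had 0 members under the criterion. Of the 14 oligodendrocyte precursor genes, 13 were higher and 1 lower in both tables (28.2% and 34.6% of all genes), at a median of 0.16. Without PFC1, 13 were again higher in both, at a median of 0.10. Higher in both were 8 of 14 in the suffixed libraries and 10 of 14 in the others.

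The names of 11 columns end in combined, 4 in each female group, 2 in male MO and 1 in male SAL, and what was combined is not stated. With the suffix as a further term, 0 genes passed adjustment and 15 immediate early genes were lower. Within the 11 libraries that carry it, 480 genes (4.57%) were higher and 613 (5.84%) lower at an unadjusted p under 0.05. In these libraries 0 passed adjustment (smallest adjusted p 0.448). Within the other 13 these were 1183 (11.3%) and 1268 (12.1%), and 0 passed (smallest adjusted p 0.0580). The list counts below are to be read against these shares. Of the 34 immediate early genes 8 were lower with the suffix and 9 without it, against 5.84% and 12.1% of all genes. With it the list median was -0.36 in females and -0.38 in males, where PFC9 was the only SAL library, and 25 members were lower in both tables. Without it the medians were -0.030 in females and -0.31 in males, and 18 members were lower in both. The females there were only PFC21 and PFC23 (MO) and PFC22 and PFC24 (SAL), too few to show a difference between the sexes. Egr1 differed by -0.71 (SE 0.292) with the suffix and by -0.41 (SE 0.141) without it, and Arc by -0.94 and -0.95. Without it Egr1 was at -0.18 in females and -0.51 in males, and Arc at -0.43 and -1.19. The blood genes did not keep their count, with 6 of 6 higher at an unadjusted p under 0.05 in the suffixed libraries and 0 of 6 in the others, at medians of 0.91 and 0.38. Ribosomal protein genes went the other way, with 0 of 50 at an unadjusted p under 0.05 and a median of 0.021 in the suffixed libraries, and 50 of 50 higher at a median of 0.20 in the others. Oxidative phosphorylation genes turned direction, with 8 of 50 lower and none higher at a median of -0.060 in the suffixed libraries, and 41 of 50 higher and none lower at a median of 0.15 in the others. Medians of the 6 lists of neuronal receptors, channels and synapses lay from -0.094 to -0.0057 in the suffixed libraries and from -0.11 to -0.069 in the others. In suffixed males, where SAL was 1 library, they were above 0 except for presynaptic genes. Slc35c1 was lower in both sets, at -0.30 (SE 0.0858) and -0.15 (SE 0.0665), as were Cbln2 at -0.24 and -0.13 and Nckipsd at -0.21 and -0.11, and Rras2 was higher in both at 0.26 and 0.22. For Tubgcp6 the values were -0.070 and -0.28 and for Ankrd42 -0.15 and -0.25. These 6 genes and Egr1 were named for a small p over all 24 libraries. A like sign in both sets therefore follows largely from that choice. The differences between the sets were not tested.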

How the data were processed

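Strand-specific poly-A libraries of P21 mPFC were sequenced by the authors. Per the labels and the study's methods, alignment to mm10 used STAR, Salmon did the quantification, and DESeq the tests. The deposited unit is a signal, normalized counts made by the authors, which are not raw counts and were normalized separately for each sex. Low values cluster near multiples of a step for each library, but at 10 to 100 reads only 4.02% to 35.8% of values were within 0.02 of a whole read, so reads were not recovered, the step gives only an approximate depth, and count models such as that of the study were not run. Counting errors cover counting only, and Salmon splits reads among near-identical copies. All columns were used.

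Genes with a mean of at least 100 in each table were kept. log2(value + 1) was fitted with limma 3.58.1 in R 4.3.3 (empirical Bayes with trend) on treatment and table, with Benjamini-Hochberg adjustment over 10503 genes, and fold changes are on that scale, which understates those of low genes. Single genes were also given a two-sided exact permutation test over all 853776 relabellings within tables. The interaction of treatment and table was a separate fit. The script was tested on simulated data. Labels name no culture or litter, so p-values measure the spread between these libraries.

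The comparison, the 42 gene lists and the rule for named genes were chosen with earlier results of these data known. Named were the 10 genes of smallest p in each direction among those with the same sign in both tables, those under 0.05 in each table first and the rest with an interaction p of at least 0.05, the member of each list with the smallest p under 0.05 and the same sign, and Oprm1, Slc17a7, Gad1, Mbp, Cx3cr1, Aqp4, Cldn5, Fos, Dnmt3a and Gapdh. Further members of a list, and Amd1 and 2210418O10Rik were named after their values were seen. A gene that the rule names is not reported here. No list was tested as a set. Alternatives were other pseudocounts and minimum levels, median-ratio and quantile scaling, sample weights, terms for the suffix and for principal component 1, no trend, the interaction model, and each library left out. Fits within suffixed and other libraries, and all alternatives for 3 list counts, were added after seeing the data. Promoters are from RefSeq. Figures were drawn with matplotlib 3.10.9 in Python 3.11.15.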

Additional observations from a re-analysis of the deposited data

Results flagged for a closer look

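Libraries that stood apart from the other 5 of their group by Dixon's criterion were found in 14 of 184 groups tested, where chance alone gives about 1 in 20, and 6 of the 14 were female MO library PFC1. In PFC1, normalized counts of the neuronal genes were 8754 (others 13114 to 14686) for Syn1, 1637 (others 2237 to 2484) for Cacnb1, 9241 (others 13029 to 15013) for Cx3cl1 and 24987 (others 30847 to 33682) for Slc17a7, all below the group. The glial genes were above it, at 1590.4 (others 737 to 942) for Cx3cr1 and 3713 (others 1564 to 2100.2) for Aqp4.

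Female SAL library PFC6 was low for 2 immediate early genes, with Egr1 at 4418 (others 7109 to 8340.3) and Fos at 391 (others 733 to 915). Female SAL library PFC24 was low for Rras2, at 326 (others 378 to 406), and high for Tubgcp6, at 524 (others 396 to 437). Male SAL library PFC16 was low for Mycl, at 184 (others 245 to 287), and high for Tubgcp6, at 482 (others 430.2 to 449). Male MO library PFC17 was low for Ankrd42, at 148 (others 179 to 190.2), and male MO library PFC15 high for Zfp719, at 416 (others 309 to 337). What sets these libraries apart was not tested.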

How the results depend on the processing

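The count of 0 genes at an adjusted p of 0.05 held in the fit over both tables under every alternative run. Within the suffixed libraries the male table alone, with 2 MO and 1 SAL libraries, gave 2. Over the 45 tested named genes and all alternatives, 1622 of 1738 values kept direction and side of the unadjusted threshold, 105 lost the threshold, 3 gained it and 8 reversed. The reversed values, none past the threshold in the report, were Aqp4 at -0.016 with sample weights, -0.092 with a term for principal component 1, -0.056 without PFC1 (to 0.091 without PFC19) and -0.19 in libraries with no suffix, Cldn5 at -0.029 with sample weights, Mbp at -0.042 with the component term, and Dnmt3a at -0.089 and Gapdh at 0.089 in libraries with no suffix. The values that gained it were Dnmt3a at 0.23 and Gapdh at -0.25 in suffixed libraries and Mbp at 0.45 in those with no suffix. Rescaling by median ratios or quantiles moved no count over all genes by over 1.5 times.

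Of counts at an unadjusted p under 0.05, a minimum mean of 10 gave 316 higher and 11 in each table, and a minimum of 500 gave 69 higher, 146 lower, 2 in each table, 9 immediate early and 3 blood genes. A minimum sum of 10 gave 434 higher, 20 in each table and 10 blood genes. Other minimums change the number of genes tested. Genes in each table numbered 12 with sample weights and 11 with the suffix term, and the component term gave 137 lower and 2 blood genes. Libraries with the suffix alone gave 480 higher, 613 lower and 8 immediate early genes, and those with none gave 1183 higher, 1268 lower, 379 in each table, 9 immediate early and 0 blood genes. The causes were not tested. Leaving out 1 library at a time gave 106 (without PFC1) to 410 (without PFC8) higher genes, with 118 without PFC24, 176 (PFC1) to 512 (PFC8) lower, 2 to 15 in each table, 11 to 18 immediate early and 2 to 6 blood genes, and 50 ribosomal protein genes above 0 throughout. With sample weights, immediate early genes lower numbered 20, and with the component term 11, and ribosomal protein genes above 0 numbered 47 and 45.

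No paired analysis was possible because the groups share no replicate number and littermates are not given. At about 13.4 to 20.1 in units of 1e6 reads, genes under 100 normalized counts, Oprm1 among them, were not tested.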

Other observations

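The 2 genes whose estimate passed 2-fold had no small p, since they were listed at 0 in some libraries and at over 100 normalized counts in others of the same group. Amd1, the decarboxylase that makes the propylamine donor of polyamine synthesis, was at 0 in 2 of 6 female SAL libraries and at 199 to 1204.5 in the rest, at 198 to 1352 in female MO, at 0 in 3 of 6 male SAL libraries with the others at 148 to 668, and at 0 in 3 of 6 male MO libraries with the others at 203 to 1320.3. Its log2 difference was 1.47 (SE 1.49). The unnamed transcript 2210418O10Rik was at 0 in 8 of 24 libraries, 2 female SAL, 2 female MO, 3 male SAL and 1 male MO, with a log2 difference of 1.21 (SE 1.37). A listed 0 may be a failed estimate among similar copies, and this was not tested.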
